A study of Schizosaccharomyces pombe with 70 samples.

Results

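The genes that encode subunits of the proteasome were followed in fission yeast (Schizosaccharomyces pombe) treated with hydroxyurea, an inhibitor of ribonucleotide reductase that starves DNA synthesis of its building blocks. Members were the genes whose symbol in the platform annotation starts with rpn, rpt, pre or pup followed by a digit, or is mts4, pad1, pts1 or pam1. The rule found 32 of 4929 genes on the arrays, each read by 2 probes, and all 32 had values on all 70 arrays and entered the test with 4921 genes in all. The rule reads symbols, not values. They divide into 6 genes of the alpha ring and 7 of the beta ring of the core particle, 6 ATPases and 5 other subunits of the base, and 8 genes of the lid.

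Asynchronous mid-log cultures grown at 30 degrees were exposed to 8 mM hydroxyurea and taken at 0 (untreated), 10, 30, 60 and 120 min. A wild-type strain was set beside single mutants of cds1, chk1 or rad3 and a double mutant that lacks both rad3 and sep1, 5 strains in all, and the labels give no allele for any of them. Rad3 is the kinase at the head of the DNA structure checkpoints, Cds1 the effector kinase that acts at stalled forks, Chk1 the effector kinase that acts after DNA damage, and Sep1 a forkhead factor that drives genes of mitosis and cell separation. On every array RNA of the sample was labelled with Cy5 and RNA of untreated wild type with Cy3, so each value is a log2 ratio to untreated wild type. There were no dye-swapped arrays among the 70, and a dye or reference offset of a gene cancels in every difference between samples.

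The proteasome degrades proteins that carry ubiquitin chains. Its core particle is a barrel in which outer alpha rings guard the entry and inner beta rings hold the proteases. The regulatory particle caps the barrel: ATPases of the base unfold the substrate, receptors on the base bind the ubiquitin chain, and the lid removes the chain. In fission yeast, mutants of several subunits were first found as mts strains that cannot separate sister chromatids, because the proteasome destroys securin and cyclin at anaphase. In S phase and after damage it also destroys Spd1, an inhibitor of ribonucleotide reductase. In budding yeast the subunit genes are driven together by the factor Rpn4.

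The series text calls the repeats biological. In 9 of 65 pairs of arrays within a group what set the arrays apart was not shared by both probes of a gene (r of -0.0023 to 0.032), against r of 0.113 to 0.488 in the 56 other pairs, and each of those 9 pairs was counted as 1 sample. Counted so, there were 61 samples, with 15 in cds1, 14 each in rad3 and chk1, 13 in wild type and 5 in rad3 sep1. All 5 rad3 sep1 groups were such pairs, so that strain had 1 sample per time and no replicate of its own, and its spread in every test was taken from the other strains. One array of untreated rad3 sep1 lay above the other by a median of 0.16 over all genes, and their mean was used. At 10 min the median difference between the 2 rad3 sep1 arrays was 0.14. Each deleted gene was low in its own mutant: rad3 lay between -3.13 and -1.33 in the rad3 samples, cds1 between -3.01 and -1.89 in cds1, chk1 between -1.85 and -1.11 in chk1, and sep1 between -3.73 and -3.36 in rad3 sep1. A ratio array gives no read depth, and the number of arrays limits the precision. Asynchronous cultures hold cells of all cell-cycle stages, and a change in the mix of cells cannot be told apart from a change within each cell.

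The median level of the proteasome genes was higher at 120 min than before treatment, by little. In wild type the median over the 32 genes of the log2 ratio was 0.03, 0.21 and 0.11 in the 3 untreated samples, 0.19 to 0.31 at 10 min, 0.17 in both samples at 30 min, 0.22 in both at 60 min and 0.30 to 0.44 at 120 min. All 3 samples of 120 min therefore lay above all 3 untreated ones, while those of 10, 30 and 60 min overlapped them or lay just above. In cds1 the median went from 0.12 to 0.21 untreated to 0.42 to 0.57 at 120 min. The rad3 samples ranged from 0.19 to 0.26 untreated and from 0.49 to 0.61 at 120 min. In chk1 the untreated samples held 0.10 to 0.22 and those of 120 min 0.25 to 0.41. The single rad3 sep1 samples held 0.04, 0.22, 0.39, 0.52 and 0.71 at the 5 times, each higher than the one before. In all 4 replicated strains the 120 min samples stood clear of the untreated ones. Over all genes tested the group medians stayed between -0.09 and 0.02 in every strain and at every time.

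**Figure D1:**
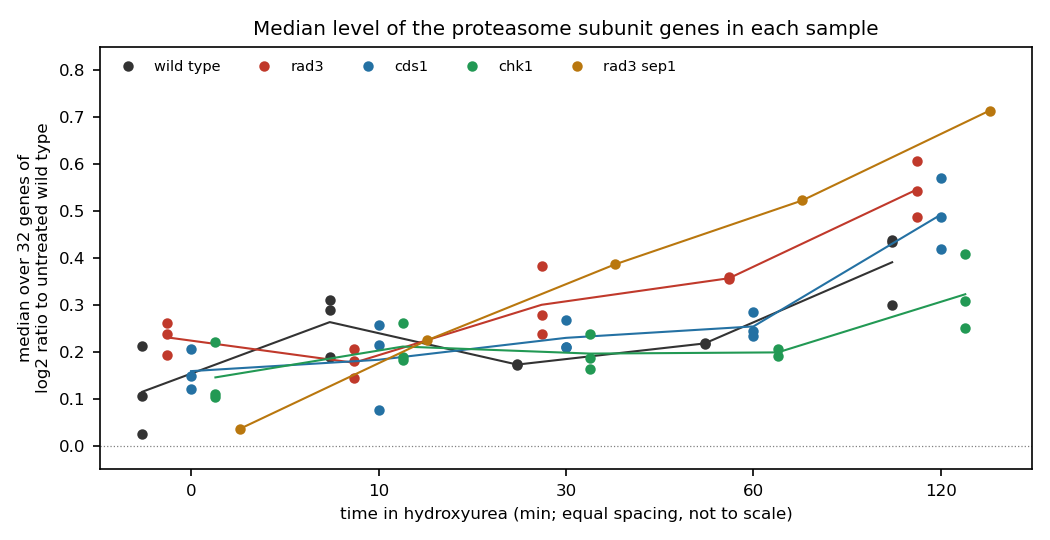
Median over the 32 proteasome genes of the log2 ratio to untreated wild type (vertical axis) in each of the 61 samples (points) by time in hydroxyurea in min (horizontal axis), with lines through the means of each of the 5 strains. The 120 min samples of wild type lie between 0.30 and 0.44 against 0.03 to 0.21 untreated, and the rad3 sep1 samples run from 0.04 to 0.71.

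For the early response, the mean of the 10 and 30 min groups was set against 0 min with limma, adjusted over all 4921 genes. The test called 0 of the 32 genes in wild type, rad3, cds1, chk1 and rad3 sep1 alike, against 0.772%, 2.24%, 0.528%, 1.22% and 0.142% of all genes. At an unadjusted p under 0.05 limma marked 1, 3, 1, 3 and 4 members. The share of all genes at that unadjusted cut was not counted, here or below. Median early changes of the members were 0.11 in wild type, 0.04 in rad3, 0.04 in cds1, 0.06 in chk1 and 0.27 in rad3 sep1. In rad3 sep1 all 32 members had an early change above 0, and over all genes tested the median there was 0.06. Of the 4921 genes tested, 2595 were above 0 at 10 min and 3514 at 30 min in that strain. Replicate numbers paired the chk1 samples, and with the number as a block pup3, a beta ring gene, passed in chk1 at 0.33 (adjusted p = 0.0217).

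The late response set the mean of the 60 and 120 min groups against 0 min. Wild type had 11 members higher and 0 lower, where 12.3% of all genes were called higher and 12.1% lower. The 11 were pre3, pre6, pup1, pre1, rpt3, rpn12, pre8, rpn1301, rpn3, pre4 and rpt2. The median late change of the 32 was 0.24, with 27 above 0, against a median of 0.00302 over all genes. Without the untreated wild-type replicate 1 the count fell to 3. After quantile normalization between arrays the count was 6 higher and 1 lower with a median of 0.15, and the lower one was rpn10. For fits after quantile normalization or without 1 sample the share of all genes is not given, here or below. Their counts therefore cannot be set against it.

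In rad3 the late response also held 11 members higher and 0 lower, where 10.4% of all genes were higher and 8.94% lower, with a median of 0.25. Without the untreated rad3 replicate 3 the count was 7. With the replicate number as a block, 19 members were higher and 1, rpn1302, was lower, against 16.3% and 15.7% of all genes in that fit. Those gained were pup1, pts1, pre5, pre8, pre9, rpt4, rpn2, rpn8 and rpn1302. In cds1 there were 11 higher and 0 lower, where 12.4% and 12.6% of all genes were called, with a median of 0.22. Without the untreated cds1 replicate 3 the count was 5, and with the block it was 18 higher and 0 lower against 17.9% and 19.7% of all genes, with pup1, pts1, pre9, mts4, rpn2, rpn7 and rpn11 gained. Quantile normalization left 5 in rad3 and 3 in cds1, with medians of 0.14 and 0.16. In both mutants 30 of the 32 members had a late change above 0.

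In chk1 the late response had 4 members higher, pup3, pre3, mts4 and rpn12, and 1 lower, pup2, where 12.6% of all genes were higher and 14.9% lower. Its median was 0.15, with 24 of 32 above 0. Leaving out samples moved the count in chk1 both ways: it was 2 without the untreated chk1 replicate 2 and 8 without the 120 min replicate 3. With the block it was 11 higher and 5 lower, against 19.9% and 21% of all genes, the 5 being rpn1302, rpt1, rpt4, pup2 and rpt6. The higher genes gained were pre1, pre4, pts1, pre6, rpt2, rpt5 and rpn8. After quantile normalization it was 2 higher and 3 lower. In rad3 sep1 16 members were higher and 0 lower, where 11% of all genes were higher and 5.14% lower, with a median of 0.56 and 31 of 32 above 0. Quantile normalization left 0 members called there, with 8 at an unadjusted p under 0.05 and a median of 0.31.

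Across the 5 strains 21 of the 32 genes rose late in at least 1, where 24.4% of all genes did. At least 4 strains shared the rise of 7 members, where 6.18% of all genes rose in as many. Of the 7, pre3 and rpn12 rose in all 5, as did 3.74% of all genes, and pre1, pre4, rpt2, rpt3 and rpn3 in 4. No rise passed in any strain, in the fit without the block, for 11 members: pre9, pup2, pts1, pam1, rpt1, rpt4, rpt6, rpn2, rpn10, rpn1302 and rpn501. A late change above 0 in all 5 strains was seen for 23 genes, called or not. Counts by sign of late changes and of differences between strains stand without the share of all genes. At 120 min alone 28, 30, 31, 25 and 32 members were above 0 in wild type, rad3, cds1, chk1 and rad3 sep1. Of the 4921 genes tested, 2346, 2351, 2303, 2413 and 2445 were above 0 there. One gene, rpt1, had a late change below 0 in all 5 strains, and rpn1302 in 3 of the 4 replicated ones. At 120 min alone rpt1 was above 0 min in wild type (0.07) and rad3 sep1 (0.09), and below it in the other strains. In rad3 sep1 the 2 probes of rpt1 had late changes of opposite sign (0.13 and -0.17). The late responses of a strain are each set against that strain's own untreated samples, and all values share the reference RNA.

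**Figure D2:**
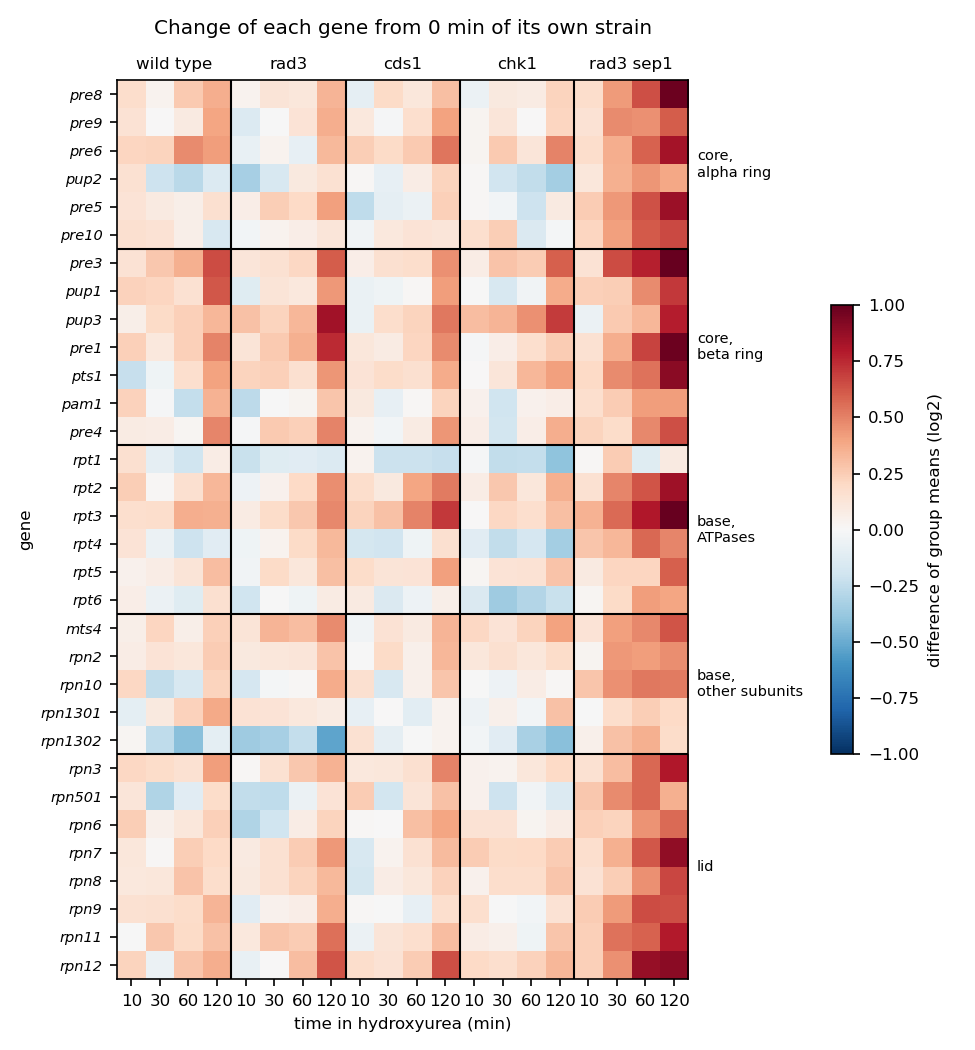
Difference of group means from 0 min of the same strain (colour, log2, red higher and blue lower) for each of the 32 genes (rows, grouped by their place in the particle) at 10, 30, 60 and 120 min (columns) in the 5 strains. Red is deepest at 120 min and in rad3 sep1, while rpt1 and rpn1302 stay pale or blue in most columns.

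In every strain the median change of the members was larger at 120 min than at 60 min. At 60 min it was 0.14 in wild type, 0.13 in rad3, 0.12 in cds1, 0.07 in chk1 and 0.53 in rad3 sep1. In rad3 sep1 31 of 32 members were already above 0 at 60 min, where 2806 of the 4921 genes tested were. Splitting the 2 late times was an addition made after the data were seen. At 120 min alone 14 members were higher and 0 lower in wild type (13% and 12.1% of all genes), with a median change of 0.32. The same contrast gave 19 higher and 1 lower in rad3 (14.1% and 14.9% of all genes) and 15 higher and 0 lower in cds1 (14.1% and 14.1%), with medians of 0.35 and 0.33. For chk1 it gave 11 higher and 3 lower (17.2% and 19.5%) with a median of 0.24, and for rad3 sep1 17 higher and 0 lower (11.5% and 6.62%) with a median of 0.65. The lower genes were rpn1302 in rad3, and rpn1302, pup2 and rpt1 in chk1. At 60 min alone the members called higher were 0 in wild type, 0 in rad3, 2 in cds1, 0 in chk1 and 6 in rad3 sep1, where 4.88%, 2.13%, 5.22%, 2.62% and 4.51% of all genes were higher. At an unadjusted p under 0.05 limma marked 8, 7, 5, 1 and 19 members at 60 min. The 2 in cds1 were the ATPase genes rpt2 and rpt3.

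The beta ring held the most risers in wild type, 4 of its 7 genes, with a median late change of 0.29 over the ring. Its median was 0.36 in rad3, 0.27 in cds1, 0.22 in chk1 and 0.59 in rad3 sep1, and all 7 genes were above 0 in each strain. The gene with the largest rise among the 32 in wild type was pre3, which encodes beta 1, one of the proteolytic subunits, with a caspase-like cut. In wild type pre3 stood at -0.14, 0.20 and 0.11 untreated, at 0.21 and 0.62 at 60 min, and at 0.73, 0.78 and 0.62 at 120 min. No late sample fell within the untreated range, and the 120 min samples were the highest. The late change of pre3 was 0.51 (SE 0.10, adjusted p = 0.0003), or 1.42-fold, and it was called under every alternative except 60 min alone.

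In the other strains pre3 went the same way. The late change was 0.41 in rad3 (adjusted p = 0.0040), 0.32 in cds1 (adjusted p = 0.018), 0.43 in chk1 (adjusted p = 0.0019) and 1.00 in rad3 sep1 (adjusted p = 3.0e-05). Its 120 min means were 0.71 ± 0.08 (SD, n = 3) in wild type, 0.72 ± 0.17 (n = 3) in rad3, 0.58 ± 0.07 (n = 3) in cds1 and 0.72 ± 0.06 (n = 3) in chk1. The means of wild type, rad3 and chk1 lay within their spread of each other, and the cds1 samples, the lowest, overlapped those of wild type and rad3 but not those of chk1. The rad3 sep1 samples of pre3 held 0.11, 0.25, 0.76, 0.88 and 1.34 at the 5 times. With the first probe alone the late calls of pre3 in rad3, cds1 and chk1 were lost. The cds1 call was also lost after quantile normalization and in 3 of 9 fits without 1 sample.

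Next among the beta genes came pup1, which encodes beta 2, the subunit with a trypsin-like cut. Its wild-type samples held -0.19, 0.21 and -0.14 untreated, 0.05 and 0.17 at 60 min, and 0.46, 0.58 and 0.70 at 120 min. The 60 min samples overlapped the untreated ones and the 120 min samples did not. The late change of pup1 was 0.39 (SE 0.11, adjusted p = 0.0078), and it lost its call without the untreated replicate 1 or 3 and with the second probe alone. The structural subunit beta 4 is encoded by pre1, which held 0.0028, 0.06 and -0.07 untreated, 0.29 and 0.18 at 60 min, and 0.54, 0.51 and 0.43 at 120 min. All 5 late samples of pre1 were above all 3 untreated ones, and the change of 0.37 (SE 0.09, adjusted p = 0.0017) passed without any 1 sample. The call of pre1 was lost with the first probe alone.

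Another structural subunit, beta 3, is encoded by pup3, which led the late risers of rad3 and chk1. In chk1 pup3 stood at 0.15, -0.08 and -0.09 untreated, at 0.57 and 0.33 at 60 min, and at 0.91, 0.69 and 0.47 at 120 min, with no overlap. The late change of pup3 was 0.58 in chk1 (SE 0.14, adjusted p = 0.0016), 0.59 in rad3 (adjusted p = 0.0020) and 0.38 in cds1 (adjusted p = 0.034). The cds1 call was lost in 4 of 9 fits without 1 sample, after quantile normalization and with the second probe alone. In wild type the late change of pup3 was 0.28 (adjusted p = 0.14), although all late samples there also lay above the untreated ones. The last beta gene that rose was pre4, for beta 7, at 0.26 in wild type (adjusted p = 0.031), 0.36 in rad3 and 0.26 in cds1. These calls of pre4 were all lost after quantile normalization and with the second probe alone. Without 1 sample they were lost in 5 of 8 fits in wild type, 1 of 8 in rad3 and 3 of 9 in cds1. The subunit beta 5 has the chymotrypsin-like cut, and its gene pts1 had late changes of 0.29 in wild type and 0.27 to 0.37 in the single mutants, with an SE of 0.17 to 0.18 and no call. With the block pts1 passed in rad3 (adjusted p = 0.0177), cds1 (adjusted p = 0.0304) and chk1 (adjusted p = 0.00963). For pam1, which encodes beta 6, the late changes were 0.05 to 0.15 in the 4 replicated strains.

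The alpha ring had 2 of its 6 genes called in wild type and a median late change of 0.17. In rad3 sep1 4 of the 6 were called, with a median of 0.68 against 0.59 in the beta ring, and the rings were not tested against each other. The riser with the largest change was pre6, for alpha 4. Wild-type samples of pre6 held 0.11, 0.30 and 0.22 untreated, 0.38 and 0.98 at 60 min, and 0.48, 0.68 and 0.72 at 120 min, so every late sample lay above every untreated one. The change was 0.44 (SE 0.14, adjusted p = 0.015), and it lost its call without the sample at 0.98, without the untreated replicate 1, after quantile normalization and with the first probe alone. In cds1 pre6 rose by 0.40 (adjusted p = 0.023), and in rad3 its change was 0.12 (adjusted p = 0.57). The other riser in wild type was pre8, for alpha 2, at 0.31 (adjusted p = 0.036). It lost its call in 6 of the 8 fits that left out 1 sample, after quantile normalization and with either probe alone.

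One alpha gene went down in chk1. It was pup2, for alpha 5, which held -0.01, 0.28 and 0.16 untreated, -0.22 and 0.01 at 60 min, and -0.48, -0.06 and -0.05 at 120 min. The 3 samples of 120 min and 1 of 60 min were below all untreated ones. Its late change in chk1 was -0.29 (SE 0.10, adjusted p = 0.032), 1.22-fold lower, and the call was lost in 4 of 8 fits without 1 sample and with either probe alone. In wild type the late change of pup2 was -0.20 (adjusted p = 0.15), in rad3 0.13 (adjusted p = 0.43) and in cds1 0.15 (adjusted p = 0.30). Late changes of pre5 and pre10, for alpha 6 and alpha 7, lay between -0.08 and 0.31 in the 4 replicated strains with no call, and for pre9, alpha 3, between 0.11 and 0.29. With the block pre5 passed in rad3 (adjusted p = 0.0432), and pre9 in rad3 (adjusted p = 0.0396) and cds1 (adjusted p = 0.0108).

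**Figure D3:**
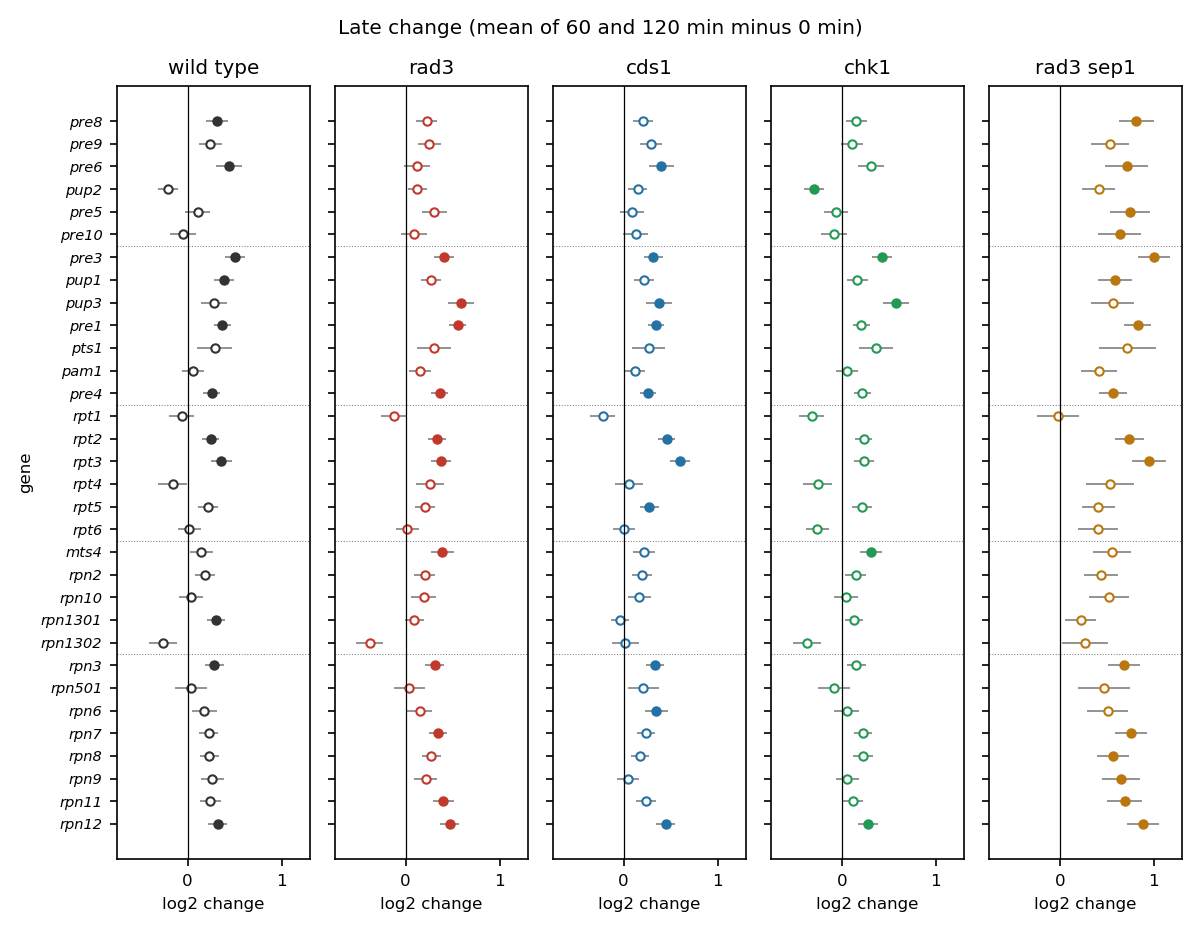
Late change (mean of 60 and 120 min minus 0 min, log2, horizontal axis) of each of the 32 genes (rows) in the 5 strains (panels), with bars of 1 SE. Filled points passed an adjusted p of 0.05 and open points did not: 11 are filled in wild type, rad3 and cds1, 5 in chk1 and 16 in rad3 sep1, where the bars are wider.

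The 6 ATPases of the base did not move as one. Both rpt2 and rpt3 rose in 4 of 5 strains, rpt5 in 1, and rpt1, rpt4 and rpt6 in none. The rpt5 call, in cds1, was lost in 5 of 9 fits without 1 sample. It was also lost after quantile normalization and with the second probe alone. In cds1 rpt3 stood at -0.13, 0.13 and 0.15 untreated, at 0.56, 0.44 and 0.63 at 60 min, and at 0.96, 0.65 and 0.65 at 120 min. The late samples were far from the untreated ones, and the change of 0.60 (SE 0.10, adjusted p = 1.8e-05) was called under every alternative. Late changes of rpt3 were 0.36 in wild type (adjusted p = 0.011), 0.38 in rad3 (adjusted p = 0.0093) and 0.24 in chk1 (adjusted p = 0.096). With the second probe alone the wild-type and rad3 calls of rpt3 were lost, and that of rad3 also after quantile normalization. Without 1 sample they were lost in 2 of 8 fits in wild type and 1 of 8 in rad3.

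The gene rpt2, known from the mts2 mutant, changed by 0.46 in cds1 (adjusted p = 0.00013), 0.33 in rad3 (adjusted p = 0.0083) and 0.24 in wild type (adjusted p = 0.049). The wild-type call of rpt2 was lost in 6 of 8 fits without 1 sample, and the rad3 call in 1 of 8. After quantile normalization the wild-type, rad3 and cds1 calls were lost, and with the first probe alone those of wild type and rad3. The wild-type call was also lost with the second probe alone. In chk1 3 ATPase genes had negative late changes, rpt1 at -0.32 (adjusted p = 0.071), rpt4 at -0.26 (adjusted p = 0.22) and rpt6 at -0.26 (adjusted p = 0.12). With the block these passed, at adjusted p = 0.0298, 0.0133 and 0.0386, and rpt4 was higher in rad3 by 0.26 (adjusted p = 0.025). The same 3 genes had late changes of -0.16 to 0.02 in wild type, none past the threshold. The ring's median late change was 0.12 in wild type and -0.02 in chk1.

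The other genes of the base are scaffolds and ubiquitin receptors. The scaffold Rpn1 is encoded by mts4, which rose by 0.39 in rad3 (adjusted p = 0.018) and 0.31 in chk1 (adjusted p = 0.048). The chk1 call of mts4 was lost in 7 of 8 fits without 1 sample, after quantile normalization and with either probe alone, and the rad3 call in 3 of 8 fits and with the second probe alone. Its late change was 0.15 in wild type and 0.22 in cds1, without a call, and it passed in cds1 with the block (adjusted p = 0.0324). The other scaffold gene, rpn2, had late changes of 0.15 to 0.20 in the 4 replicated strains, none past the threshold without the block, and with it passed in rad3 (adjusted p = 0.0484) and cds1 (adjusted p = 0.0422). The receptor gene rpn10 stood high in most samples, at 0.43 to 0.69 in untreated wild type, although both channels there held untreated wild-type RNA. Its late change was 0.03 to 0.19 in the replicated strains, with no call, and it turned to -0.33 in wild type after quantile normalization (adjusted p = 0.0464).

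Fission yeast has a pair of genes for the receptor Rpn13, whose difference was not tested. In wild type rpn1301 held -0.01, -0.13 and -0.10 untreated, 0.23 and 0.07 at 60 min, and 0.37, 0.33 and 0.21 at 120 min. Every late sample was above every untreated one, and the late change was 0.31 (SE 0.10, adjusted p = 0.018), lost in 3 of 8 fits without 1 sample and with the first probe alone. The partner rpn1302 held -0.07, 0.49 and 0.11 untreated, -0.37 and -0.11 at 60 min, and -0.17, 0.02 and 0.40 at 120 min. These ranges overlapped, and the late change was -0.26 (SE 0.15, adjusted p = 0.21). In rad3, rpn1302 fell from 0.10, 0.38 and 0.48 untreated to -0.60, 0.11 and -0.13 at 120 min, a change of -0.53 at that time alone (adjusted p = 0.0132), with 1 treated sample inside the untreated range. In rad3, cds1 and chk1 the late change of rpn1301 was 0.09, -0.04 and 0.13, without a call, and that of rpn1302 was -0.38, 0.02 and -0.37. In rad3 sep1 both had late changes above 0, of 0.22 and 0.27, with no call. With the block rpn1302 was lower in rad3 (adjusted p = 0.00448) and chk1 (adjusted p = 0.00928). The probes of rpn1301 agreed less with each other than those of most members, with r = 0.307 over arrays against a median of 0.692 over the 32 genes.

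The lid removes ubiquitin from the substrate, and all 8 of its genes had a late change above 0 in wild type, rad3 and cds1. In wild type 2 of the 8 were called, with a median of 0.24. The gene rpn12, known from the mts3 mutant, held 0.57, 0.53 and 0.58 in untreated wild type, 0.95 and 0.72 at 60 min, and 0.90, 0.90 and 0.95 at 120 min. The 2 sets did not overlap, and the late change was 0.32 (SE 0.10, adjusted p = 0.020). The wild-type call of rpn12 was lost without 1 sample in 3 of 8 fits and with the second probe alone. After quantile normalization the change reversed to -0.0747. In rad3 rpn12 rose by 0.47 (adjusted p = 0.00083), in cds1 by 0.45 (adjusted p = 0.00071) and in chk1 by 0.28 (adjusted p = 0.038), and these 3 calls too were lost after quantile normalization. The chk1 call of rpn12 was also lost in 7 of 8 fits without 1 sample and with either probe alone. Those of rad3 and cds1 were lost in none of the fits without 1 sample. With the first probe alone the rad3 call was lost, and with the second alone the cds1 call.

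The second lid gene called in wild type was rpn3, at 0.29 (adjusted p = 0.036), which also rose in rad3 by 0.31 and in cds1 by 0.33. The call of rpn3 was lost without 1 sample in 5 of 8 fits in wild type, in 4 of 8 in rad3 and in 1 of 9 in cds1. With the second probe alone it was lost in each of these strains. In rad3 it was also lost with the first probe alone and after quantile normalization. In wild type it was also lost in the fit of that strain alone. The deubiquitinase Rpn11, the enzyme of the lid, is encoded by the gene also known as pad1 and mts5. In rad3 rpn11 held 0.01, 0.01 and -0.06 untreated, 0.20 and 0.29 at 60 min, and 0.94, 0.47 and 0.21 at 120 min. Late samples were all above the untreated ones, and the change was 0.40 (SE 0.11, adjusted p = 0.0078). The call was lost with the first probe alone. In wild type rpn11 changed by 0.24 (adjusted p = 0.11). Of the remaining lid genes, rpn7 rose in rad3 by 0.34 (adjusted p = 0.011) and rpn6 in cds1 by 0.35 (adjusted p = 0.038). The rpn7 call was lost in 3 of 8 fits without 1 sample and the rpn6 call in 7 of 9. Both were lost after quantile normalization and with the second probe alone, and rpn6 also with the first. Without the block rpn8, rpn9 and rpn501 were called in none of the 4 replicated strains, and with it rpn8 passed in rad3 (adjusted p = 0.0132) and chk1 (adjusted p = 0.0467). Rpn5 has a second gene, rpn502, near-identical to rpn501 and not analysed here, and whether the probes of rpn501 also read its RNA was not tested.

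The genes of the particle followed each other to different degrees. Over the 61 samples, which share the reference RNA and hold repeated times, the r of a gene with the mean of the other 31 had a median of 0.637 and exceeded 0.5 for 21 genes. It was highest for pre1 at 0.808. The lowest were rpn1302 at -0.103 and rpt1 at -0.076. Probe agreement within a gene ran from r = 0.250 for rpn8 to 0.870 for pre5. For 4 members in wild type, 1 in rad3, 3 in cds1, 5 in chk1 and 1 in rad3 sep1 the 2 probes had late changes of opposite sign.

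Whether the checkpoint kinases alter the late change was tested as an interaction. Against wild type, 0 members were called in rad3, 0 in cds1 and 0 in chk1, where 1.3%, 2.15% and 0% of all genes were called, and 1, 2 and 0 members had an unadjusted p under 0.05. The median difference in late change was 0.02 for rad3, 0.03 for cds1 and -0.10 for chk1. For single members the difference ran from -0.32 (pre6) to 0.42 (rpt4) in rad3, from -0.34 to 0.35 in cds1 and from -0.28 (rpt6) to 0.30 (pup3) in chk1. In chk1 5 of the 32 differences were above 0. These comparisons share the wild-type samples. Missing the threshold does not show that the strains responded alike.

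Untreated cells of the single mutants also gave no call. The counts were 0 for rad3, 0 for cds1 and 0 for chk1 against untreated wild type, where 0.955%, 0.122% and 0.142% of all genes were called, with 0, 1 and 0 members at an unadjusted p under 0.05. The median difference was 0.10 in rad3 with 29 of 32 above 0, 0.05 in cds1 and 0.02 in chk1. With the replicate block limma called rpt4 higher in untreated chk1 by 0.44 (adjusted p = 0.0274). That block was fitted for each strain on its own, so it did not pair chk1 with wild type. The 0.44 is a difference at the level of replicate 1. For rpt4 the samples held 0.77, 0.48 and 0.51 in untreated chk1 and 0.24, 0.41 and 0.16 in untreated wild type.

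Loss of sep1 beside rad3 came with lower levels of some subunit genes before any treatment. Against untreated rad3, the untreated rad3 sep1 sample had 10 members lower and 0 higher, where 15.7% of all genes were lower and 6.32% higher. The 10 were rpn501, rpn10, rpn1302, rpn6, rpt1, pre9, pam1, rpn12, pup2 and rpt2, from every part of the particle. The median difference of the 32 was -0.17, against -0.05 over all genes. The count was 10 without any 1 rad3 sample, 9 after quantile normalization and 6 with the second probe alone.

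The ubiquitin receptor gene rpn10 held -0.54 in untreated rad3 sep1 and 0.60, 0.55 and 0.78 in untreated rad3. The difference was -1.19 (SE 0.20, adjusted p = 3.7e-05), 2.27-fold lower. In the 5 rad3 sep1 samples rpn10 lay between -0.54 and -0.02, and in the 56 samples of the other strains between 0.16 and 1.34, with no overlap. Of the 32 genes rpn10 alone had all 5 rad3 sep1 samples below all 56 others, and how many of all genes do was not counted. The lid gene rpn501 held -0.57 in untreated rad3 sep1 and 0.41, 0.44 and 1.04 in untreated rad3, a difference of -1.20 (SE 0.26, adjusted p = 0.00089), or 2.30-fold lower.

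Smaller differences were seen for rpt2 and rpn1302. The ATPase gene rpt2 held -0.13 in untreated rad3 sep1 against 0.28, 0.42 and 0.65 in untreated rad3, a difference of -0.58 (adjusted p = 0.0039). The receptor gene rpn1302 held -0.57 against 0.10, 0.38 and 0.48, a difference of -0.89 (adjusted p = 0.0050). In each case the rad3 sep1 sample was below all 3 of rad3, and calls of rpn10, rpn501, rpt2, rpn1302 and pup2 held under every alternative. The gene rpn12 held -0.00063 against 0.62, 0.56 and 0.67, a difference of -0.62 (adjusted p = 0.0052). For 13 of the 32 genes the untreated rad3 sep1 sample was below all 12 untreated samples of the other strains. The share of all genes with that order was not counted.

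Not all subunit genes were lower. The beta ring had 1 of 7 called, pam1, and a median difference of -0.0051. For pre3 the difference was -0.01, for rpn8 0.0033, for rpn2 0.04 and for mts4 0.04. The alpha genes pre5 and pre10 stood higher in untreated rad3 sep1, by 0.44 (adjusted p = 0.11) and 0.28 (adjusted p = 0.37), with no call.

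**Figure D4:**
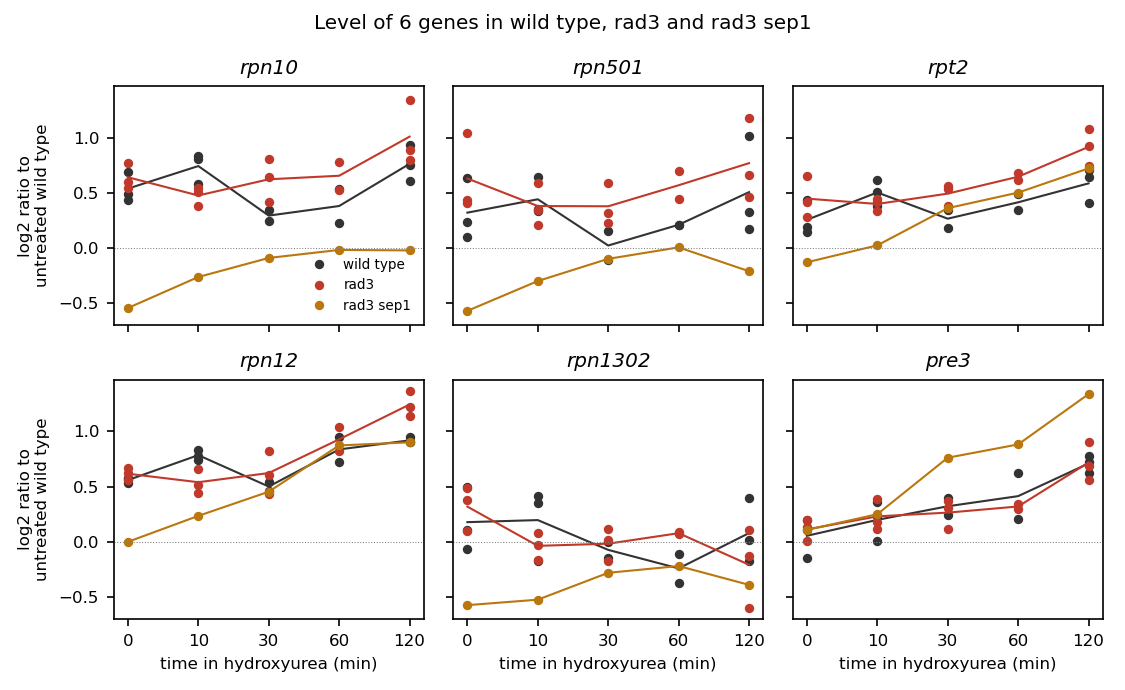
Log2 ratio to untreated wild type (vertical axis) of 6 genes (panels) by time in hydroxyurea in min (horizontal axis, equal spacing), with a point per sample and lines through group means for wild type, rad3 and rad3 sep1. For rpn10 the rad3 sep1 points stay between -0.54 and -0.02, below all others, while for pre3 they start at 0.11 and reach 1.34.

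Under hydroxyurea the rad3 sep1 samples rose through the levels of rad3. The median over the 32 genes was 0.04 untreated, against 0.19 to 0.26 in rad3, and 0.71 at 120 min, against 0.49 to 0.61 in rad3. The difference in late change, rad3 sep1 minus rad3, had a median of 0.35 with 31 of 32 genes above 0, against 0.05 over all genes. As a test, 0 members were called, where 0.813% of all genes were. An unadjusted p under 0.05 was seen for 9 members, a cut at which all genes were not counted. With all 70 arrays as samples 6 members were called, among them pre3 at 0.60 (adjusted p = 0.00654), which takes the 2 near-identical arrays of each rad3 sep1 time for replicates. The untreated rad3 sep1 sample enters both this difference and the untreated one above, with opposite sign, so they are not independent.

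The largest late changes in rad3 sep1 were those of pre3 at 1.00, rpt3 at 0.95 (adjusted p = 0.00010), rpn12 at 0.89 (adjusted p = 0.00017), pre1 at 0.83 (adjusted p = 4.4e-05) and pre8 at 0.81 (adjusted p = 0.0015). For rpt3 the untreated sample held 0.05 and those of 60 and 120 min 0.85 and 1.15. Of the genes that were lower untreated, rpt2 changed by 0.74 (adjusted p = 0.00047) and stood at 0.72 at 120 min, above untreated rad3 (0.28 to 0.65) and just below rad3 at 120 min (0.75 to 1.08). By contrast rpn501 held -0.21 and rpn1302 -0.39 at 120 min, with late changes of 0.47 (adjusted p = 0.29) and 0.27 (adjusted p = 0.55). For rpt1 it was -0.02.

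Subunit genes outside the naming rule were looked at beside the members. The alpha 1 gene scl1 rose late in wild type by 0.41 (adjusted p = 0.0046), from -0.21, 0.09 and -0.26 untreated to 0.30, 0.52 and 0.34 at 120 min, and in rad3 sep1 by 0.62 (adjusted p = 0.014). The small lid subunit gene dss1 fell in chk1 by 0.33 on the log2 scale (adjusted p = 0.0121).

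Among 6 genes of assembly, inhibition and tethering found on the arrays, fub1, related to the human proteasome inhibitor PI31, changed most. In cds1 fub1 held 0.19, 0.14 and 0.32 untreated, 0.80, 0.76 and 0.92 at 60 min, and 1.38, 1.12 and 1.32 at 120 min. In wild type it held 0.04, 0.01 and 0.04 untreated, 0.34 and 0.06 at 60 min, and 0.55, 0.50 and 0.30 at 120 min. Both rose without overlap, and every late cds1 sample was above every late wild-type sample. The late change was 0.83 in cds1 (adjusted p = 1.2e-08) and 0.30 in wild type (adjusted p = 0.033), and their difference of 0.53 passed (SE 0.15, adjusted p = 0.0409). In rad3 fub1 rose by 0.63 (adjusted p = 1.7e-05) and in rad3 sep1 by 1.00 (adjusted p = 4.1e-05). The list had 1 gene higher and 0 lower in wild type, 2 and 0 in rad3, cds1 and rad3 sep1, and 0 and 1 in chk1. The second riser was ump1, the maturation factor of the core particle, at 0.32 in both rad3 (adjusted p = 0.047) and cds1 (adjusted p = 0.035), and the gene lower in chk1 was nas2, a chaperone of base assembly, at -0.36 (adjusted p = 0.0154).

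Of 17 genes of ubiquitin supply, delivery and removal, 4 were higher and 1 lower late in each of wild type, rad3, cds1 and chk1, and 5 and 0 in rad3 sep1. The polyubiquitin gene ubi4 went from 0.49, -0.01 and 0.51 in untreated wild type to 0.91 and 0.97 at 60 min and 2.13, 1.35 and 1.65 at 120 min. Its late change was 1.00 (adjusted p = 1.4e-05) in wild type and 0.76 to 1.20 in the other strains, with a call in each. The segregase gene cdc48, which pulls ubiquitylated proteins from complexes, rose by 0.60 in wild type (adjusted p = 0.00033), and lub1, needed for ubiquitin upkeep, by 0.61 (adjusted p = 0.0016). The ubiquitin-activating enzyme gene uba1 rose by 0.48 (adjusted p = 0.0061), and ubi3, a fusion of ubiquitin with a ribosomal protein, was the lower one at -0.29 (adjusted p = 0.0469). In untreated rad3 sep1 against rad3, 0 of the 17 were higher and 2 lower, a share below the 15.7% of all genes lower there. One was uch2, whose human relative docks on Rpn13, at -0.62 against 0.53, 0.26 and 0.38, a difference of -1.01 (adjusted p = 0.0032). The other was uch1, a related hydrolase gene, at -0.39 (adjusted p = 0.042).

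The COP9 signalosome, related in architecture to the lid, was represented by 5 genes. Late in wild type 0 of them were higher and 0 lower, with a median of -0.01. In rad3 csn71 rose by 0.44 (adjusted p = 0.0016), and in chk1 csn5, the catalytic subunit, was lower at -0.29 (adjusted p = 0.023). In cds1 and rad3 sep1 none passed late. In untreated rad3 sep1 against rad3, csn71 was higher by 0.75 (adjusted p = 0.00062) and csn5 and csn2 were lower.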

How the data were processed

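Values were log2 ratios of Cy5 (sample) to Cy3 (untreated wild type), per the labels and as deposited by the authors. Their normalization was not given in the sources used here, and nothing was rescaled. The 2 probes of a gene were averaged, and array pairs whose difference did not repeat between probes (r under 0.05) were merged, which gave 61 samples. A gene had to be measured on 2 or more arrays in each group, and was then tested with limma 3.58.1 (lmFit, eBayes) in R 4.3.3 over 25 group means. Adjusted p-values are Benjamini-Hochberg over 4921 genes, with a threshold of 0.05. A gene "rose" or "fell" where it passed. Tables were made with pandas 2.3.3 and numpy 2.4.6 under Python 3.11.15, and figures with matplotlib 3.10.9.

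Samples with the same replicate number deviated together (every r over 0.1) in the early contrast of wild type, the late contrast of rad3, both contrasts of cds1 and chk1, and untreated cds1 or chk1 against wild type. Fits with that number as a block stand beside those results where a call or count moved. The block was fitted within each strain and did not pair samples of different strains. The fit was tested on simulated data.

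Values per sample were given for the 4 largest late risers and fallers of wild type past the threshold, up to 4 members per strain difference by adjusted p, and paralog pairs. Others (pup2, pup3, rpt3, rpn11, rpn12 and list genes) were added after their values were seen. The members and lists were chosen with earlier results of these data known. No sequences were used here. Alternatives were: arrays centred, quantile normalization, all 70 arrays, either probe alone, the block, only the compared strains, no filter, and each sample left out.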

Additional observations from a re-analysis of the deposited data

Results flagged for a closer look

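The late change of pup2 (alpha 5) was 0.33 higher in rad3 than in wild type (SE 0.15, adjusted p = 0.36), and every late wild-type sample lay below the untreated wild-type mean while every late rad3 sample lay above its own.

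For rpn1302 the late change was 0.65 higher in rad3 sep1 than in rad3 (SE 0.29, adjusted p = 0.45), with the late samples of both strains on opposite sides of their own untreated means. Neither interaction passed the threshold, and rad3 sep1 had 1 sample per time.

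The late change of fub1 was 0.53 higher in cds1 than in wild type (SE 0.15, adjusted p = 0.0409), by the interaction term itself.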

How the results depend on the processing

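Counts of members called late moved as follows, given without the share of all genes in each fit. That share moved too: with the block the genes called higher went from 10.4% to 16.3% of all genes in rad3. They went from 12.4% to 17.9% in cds1 and from 12.6% to 19.9% in chk1. Centred arrays gave 8 in chk1. Quantile normalization gave 7 in wild type, 5 in rad3 and 3 in cds1 but 0 in rad3 sep1 (8 at an unadjusted p under 0.05), and it reversed the late change of rpn12 in wild type to -0.0747. With all 70 arrays chk1 had 12, rad3 sep1 29, its difference from rad3 6 and its early response 2. The first probe alone gave 5, 6, 7, 1 and 10 in wild type, rad3, cds1, chk1 and rad3 sep1, and the second 4, 7, 5, 2 and 10, with 6 for untreated rad3 sep1 against rad3. The replicate block gave 17, 20, 18, 16 and 27 late, 1 each for the early responses of rad3 and chk1, 1 each for the late differences rad3 minus wild type (rpt4, 0.43, adjusted p = 0.0388) and rad3 sep1 minus rad3 (pre3), and 1 for untreated chk1 against wild type; it moved no other count by over 1.5 times. Fits of the compared strains only gave 7 in cds1, and could not be made for rad3 sep1 alone. At 120 min alone rad3 had 20 and chk1 14, and at 60 min alone the 5 strains had 0, 0, 2, 0 and 6. Leaving out 1 sample gave 3 to 10 in wild type, 7 to 12 in rad3, 5 to 11 in cds1, 2 to 8 in chk1, 10 for untreated rad3 sep1 against rad3, and 0 elsewhere. The causes of these shifts were not tested. Rises near 0.3 on the log2 scale lie at the limit of what 2 or 3 samples per group resolve, and low probe signal could not be checked from ratios.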
